A study of Mus musculus with 2 samples.

Results

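Eph receptors and their ephrin ligands were read in single epithelial cells of the mouse jejunum, the middle stretch of the small intestine. The set was given as a list of 7 genes out of the 27998 in the count matrices. It holds the receptor genes Ephb2, Ephb3, Ephb4 and Epha2 and the ligand genes Efnb1, Efnb2 and Efna1, and all 7 were found. The cells came from crypts of 2 male mice, each 12 months old, in which the gene of the microRNA miR-375 had been deleted throughout the body (375KO). The line was made with CRISPR/Cas9, its strain is labelled C57BL6/2J, and the preparation notes name B6 albino mice. Each mouse gave 1 droplet library, called mouse 1 and mouse 2 here. All cells carry the deletion and miR-375 itself was not analysed here, so the deletion was not checked and no value below measures its effect. The comparisons are between cell types of these 2 mice.

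Eph receptors are tyrosine kinases in the cell membrane, and ephrins are ligands tethered to the surface of neighbouring cells. Ephrin-A proteins are held by a lipid anchor, whereas ephrin-B proteins cross the membrane and can signal into their own cell as well. In the intestine EphB receptors are known as genes that Wnt signalling switches on in the crypt, and B-type ephrins are known to be made by differentiated cells above it. Contact between cells with much receptor and cells with much ligand causes repulsion, which keeps proliferating cells in the crypt and Paneth cells at its base.

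Promoters are shown for 2 receptors that were higher in stem cells than in enterocytes, Ephb2 and Ephb3, and for a receptor and a ligand that were lower there, Epha2 and Efnb2. The RefSeq table of promoters (GRCm38.p6, the same build as the mm10 files) gave 8 windows for the 7 genes, with 2 for Efna1. Each window runs from 250 bases before a gene's start to 50 after it. The stretch before the start is printed, 5′ to 3′ on the gene's strand, and that of Ephb3 ends where its GENCODE M21 gene model begins. Capitals mark matches, on either strand, to the letter patterns described after the sequences. Ephb2 lies on the minus strand, at chr4:136836013-136836262. Ephb3 lies on the plus strand, at chr16:21204545-21204754. Epha2 lies on the plus strand, at chr4:141300971-141301220. Efnb2 lies on the minus strand, at chr8:8661243-8661492.
Ephb2: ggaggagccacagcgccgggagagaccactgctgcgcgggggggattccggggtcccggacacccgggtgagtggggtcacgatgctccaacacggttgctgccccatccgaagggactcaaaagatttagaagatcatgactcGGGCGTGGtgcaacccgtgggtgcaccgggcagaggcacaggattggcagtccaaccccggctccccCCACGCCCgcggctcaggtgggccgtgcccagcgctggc
Ephb3: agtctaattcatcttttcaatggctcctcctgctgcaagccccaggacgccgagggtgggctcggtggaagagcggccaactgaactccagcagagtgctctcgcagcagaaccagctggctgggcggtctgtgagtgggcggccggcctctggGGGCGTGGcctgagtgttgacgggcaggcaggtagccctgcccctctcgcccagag
Epha2: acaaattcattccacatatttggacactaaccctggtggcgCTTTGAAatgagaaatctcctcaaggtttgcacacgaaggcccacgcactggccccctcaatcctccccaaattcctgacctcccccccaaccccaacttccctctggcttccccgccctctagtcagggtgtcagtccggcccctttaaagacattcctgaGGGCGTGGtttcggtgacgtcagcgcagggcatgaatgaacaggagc
Efnb2: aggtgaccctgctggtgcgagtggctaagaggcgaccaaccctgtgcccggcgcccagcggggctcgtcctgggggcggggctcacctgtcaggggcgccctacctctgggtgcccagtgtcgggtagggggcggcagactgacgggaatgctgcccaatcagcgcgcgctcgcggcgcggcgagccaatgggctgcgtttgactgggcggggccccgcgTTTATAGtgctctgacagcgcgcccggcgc

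The patterns were chosen after the windows had been looked at, and their matches are a description. TCF and LEF proteins carry the Wnt signal to DNA, and their letters CTTTGAA or CTTTGAT stood in 1 of the 8 windows, that of Epha2 at position -209 from the start, and in 8.65% of all 32851 windows. A wider first search that also took CTTTGTA and CTTTGTT matched the same single window among the 8, and 16.9% of all windows. None of Ephb2, Ephb3 and Ephb4 held any of these letters, which says only that they are not in these windows. For 3 more patterns added after that search, GGGNGTGG of KLF factors stood in 5 of the 8 windows and 17.6% of all. TTTATNG of CDX factors stood in 1, at position -30 in Efnb2, and in 10.9% of all. CAAAGTNCA of HNF4 stood in none, and in 1.41% of all. The 4 sets of letters do not overlap one another in the printed stretches. The Ephb2 window was 68.7% G or C, and that of Efnb2 72.3%, beside a median of 52.7% over all windows. The KLF letters are rich in G, and the share over all windows was not matched for G or C.

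The kept cells numbered 2082 in mouse 1 and 1193 in mouse 2, with a median of 16475 and 15232 UMIs per cell (molecule tags that count each captured RNA once). The libraries share 0 barcodes. Cells carry 10 type names given by the authors. Of 43 marker genes, 39 were highest in their own type in both mice, and the exceptions were Ascl2 of stem cells (highest in tuft cells), Pcna and Mcm4 of transit-amplifying (TA) cells, and Atoh1 of secretory progenitors. Levels are given as UMIs of a gene per 1000000 UMIs of that type (CPM). The 9 epithelial types gave between 215413 and 19366535 UMIs per mouse, so levels in secretory progenitors, enteroendocrine cells (EEC) and tuft cells rest on few molecules. Reads come from RNA 3′ ends, so levels are not compared between genes. Intraepithelial lymphocytes (IEL, 50 and 18 cells) are not epithelial and were kept out of the tests.

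The B-type receptors were higher at the stem end of the absorptive path, and Epha2 and all 3 ligands were higher in enterocytes. Stem cells renew the lining, TA cells are their dividing progeny, and enterocytes are the absorptive cells that follow. In stem cells against enterocytes all 7 genes passed the test (edgeR quasi-likelihood, Benjamini-Hochberg adjusted p under 0.05), 3 higher and 4 lower in stem cells. Of all 11013 genes tested, 51.3% passed, 23.5% higher and 27.8% lower, so about every other gene differs between these classes. The p-values rest on 2 mice and on types that share 1 estimate of spread per gene. The types were named by the authors from the same cells. The tests therefore describe how far the named classes stand apart.

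Ephb2, the receptor best known as a mark of the crypt base, was at 37.0 CPM in stem cells, 35.1 CPM in TA cells and 7.13 CPM in enterocytes of mouse 1. In mouse 2 the levels were 48.0, 59.8 and 14.6 CPM. Enterocytes were lowest of the 3 in both mice, and their levels did not overlap with those of stem or TA cells. The fitted log2 fold change of stem cells over enterocytes was 1.79 (SE 0.26, edgeR adjusted p = 1.25e-06). When each cell was thinned to 5000 UMIs, Ephb2 was seen in 13.2% of 136 stem cells and 2.37% of 930 enterocytes of mouse 1, and in 23.1% of 117 and 5.50% of 382 in mouse 2. Without thinning the shares were 32.4% and 11.6% in mouse 1, and 45.3% and 15.4% in mouse 2. The median depths were 12282 UMIs in stem cells and 16975 in enterocytes of mouse 1, and 12559 and 13405 in mouse 2. In lymphocytes Ephb2 was seen in 4 of 50 cells of mouse 1 (8.0%, median depth 4109.5 UMIs) and 0 of 18 in mouse 2 (10225.5 UMIs). After thinning it was seen in 1 of 11 (9.09%, interval 0.230 to 41.3) and 0 of 18. Whether lymphocytes make this RNA or held free RNA was not tested. The lymphocyte share of mouse 1 is above the thinned share in enterocytes, and its level of 15.2 CPM is above their 7.13, on 4 UMIs. The part of free RNA in the low Ephb2 of enterocytes was not tested.

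Ephb4, a receptor best known from the lining of veins, was likewise lowest in enterocytes of these 3 types. Mouse 1 gave 37.6 CPM in stem cells, 38.6 in TA cells and 4.96 in enterocytes. Mouse 2 gave 63.0, 56.0 and 15.9 CPM. In plain CPM stem and TA cells thus ranked the other way round than for Ephb2 in each mouse. On the TMM scale of the fit stem cells were above TA cells in both mice, at 28.4 and 26.8 in mouse 1 and 52.1 and 42.1 in mouse 2. Stem cells were above enterocytes by a log2 fold change of 2.18 (SE 0.24, edgeR adjusted p = 1.10e-08). Ephb3, the partner of Ephb2 in the crypt, was rarely captured. Stem cells gave 9 and 11 UMIs in mouse 1 and mouse 2, TA cells 10 and 31, and the far more numerous enterocyte UMIs held 3 and 2. In CPM this was 5.05 and 6.86 CPM in stem cells, 1.18 and 5.42 CPM in TA cells and 0.155 and 0.374 CPM in enterocytes. Enterocytes were lowest in both mice, and TA cells of mouse 1 were below those of mouse 2. The log2 fold change of stem cells over enterocytes was 4.02 (SE 0.69, edgeR adjusted p = 1.51e-05), on 5 enterocyte UMIs in all.

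Epha2, a receptor of many epithelia that binds ephrin-A1, ran the other way. It was at 3.36 and 3.12 CPM in stem cells, 6.75 and 5.95 CPM in TA cells, and 24.1 and 10.7 CPM in enterocytes of mouse 1 and mouse 2. Enterocytes were highest of these types in both mice, although those of mouse 1 were far above those of mouse 2. The log2 fold change of stem cells over enterocytes was -2.72 (SE 0.45, edgeR adjusted p = 8.70e-06).

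Efnb2, an ephrin that binds Ephb4 and the other B receptors, had the widest span of the ligands. It gave 3.92 CPM in stem cells, 18.1 in TA cells and 53.8 in enterocytes of mouse 1, and 5.61, 14.3 and 49.7 CPM in mouse 2. The 3 types were in the same order in both mice and did not overlap. The log2 fold change of stem cells over enterocytes was -3.73 (SE 0.32, edgeR adjusted p = 5.12e-11). Efnb1, the ephrin that sorts cells along the crypt together with the EphB receptors, differed far less. It was at 39.8 and 50.5 CPM in stem cells, 51.5 and 57.2 CPM in TA cells and 63.9 and 72.9 CPM in enterocytes, and its log2 fold change was -0.88 (SE 0.19, edgeR adjusted p = 2.78e-04). Efna1, which codes for the ligand of Epha2, was at 20.2 and 22.4 CPM in stem cells, 18.2 and 21.5 CPM in TA cells and 41.7 and 38.7 CPM in enterocytes, with a log2 fold change of -1.22 (SE 0.25, edgeR adjusted p = 1.44e-04). Stem and TA cells overlapped for Efna1, and enterocytes stood above both.

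**Figure D1:**
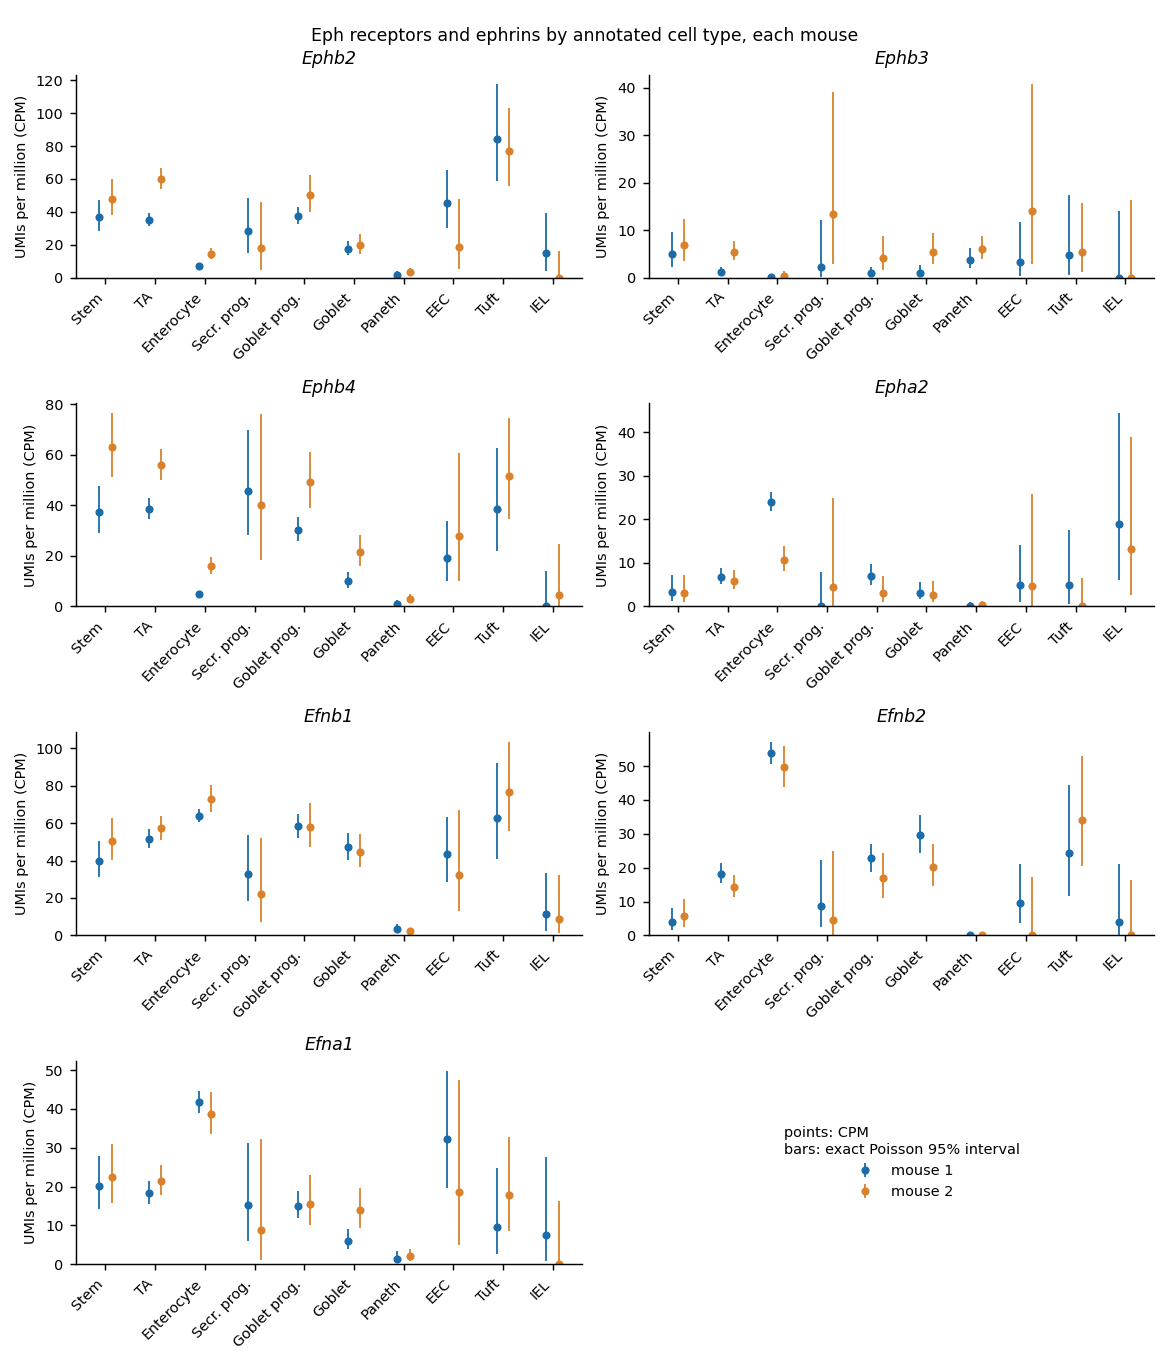
Level of each gene in UMIs per 1000000 UMIs (CPM, vertical axis, linear from 0, its own range in each panel) in the 10 annotated types (horizontal axis). Points are the 2 mice and bars are exact Poisson 95% intervals, which cover counting error only. Efnb2 in enterocytes sits at 53.8 and 49.7 CPM, whereas Ephb2 there sits at 7.13 and 14.6 CPM, below its stem and TA cells.

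Between stem and TA cells, the first step of the path, 1 of the 7 genes passed the test, against 4.83% of all genes, 1.91% higher and 2.92% lower in stem cells. That gene was Efnb2, lower in stem cells by a log2 fold change of -1.65 (SE 0.37, edgeR adjusted p = 0.0048). The call was lost without the mouse term (adjusted p = 0.168) and after thinning (adjusted p = 0.415). Ephb3 had a log2 fold change of 1.14 (SE 0.52, edgeR adjusted p = 0.252) and Epha2 one of -0.85 (SE 0.53, adjusted p = 0.448). Both rest on few UMIs. Ephb2 had a log2 fold change of 0.000088 (SE 0.17), and stem cells were above TA cells in mouse 1 and below them in mouse 2.

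In TA cells against enterocytes all 7 genes passed the test too, 3 higher and 4 lower in TA cells, against 51.7% of all genes, 22.5% higher and 29.2% lower. The fitted log2 fold changes of TA cells over enterocytes were 1.79 for Ephb2, 2.88 for Ephb3, 1.99 for Ephb4, -1.87 for Epha2, -0.74 for Efnb1, -2.08 for Efnb2 and -1.46 for Efna1. This comparison shares its enterocyte sums with the first and its TA sums with the second. Their values are therefore set side by side and not combined.

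**Figure D2:**
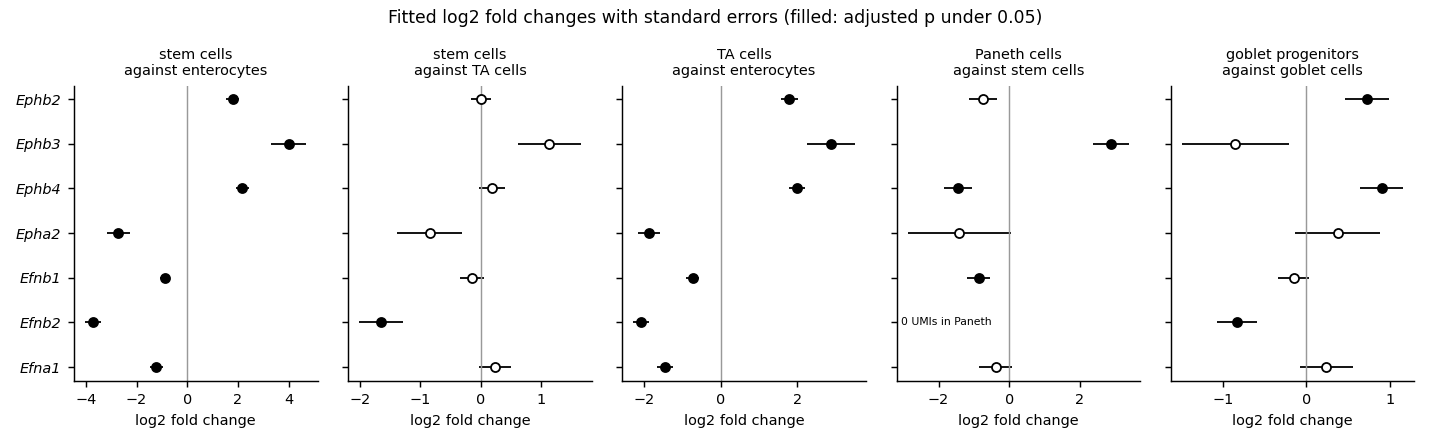
Fitted log2 fold change (horizontal axis) of each gene (vertical axis) in the 5 comparisons, each panel with its own range. Points are edgeR estimates from 18 sums of 2 mice, bars are 1 standard error, and filled points have an adjusted p under 0.05. All 7 points are filled for stem cells and for TA cells against enterocytes, and 1 is filled for stem against TA cells. Efnb2 has no point for Paneth cells, where it gave 0 UMIs.

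The balance of receptor and ligand within a cell type does not depend on how libraries are scaled. UMIs of Ephb2 and Ephb3 together were divided by those of Efnb1 and Efnb2. In stem cells of mouse 1 there were 75 receptor and 78 ligand UMIs, and in mouse 2 there were 88 and 90, a log2 ratio of -0.06 and -0.03. Enterocytes held 141 receptor and 2279 ligand UMIs in mouse 1, and 80 and 656 in mouse 2, a log2 ratio of -4.01 and -3.04. TA cells gave log2 ratios of -0.94 and -0.13, which lie between the other 2 types in both mice. The log2 ratio of stem cells exceeded that of enterocytes by 3.96 in mouse 1 and 3.003 in mouse 2, a mean of 3.48 ± 0.68 (SD, n = 2), with no test. The genes are those of the first comparison, so this is another view of the same values. On the secretory side, the log2 ratio was -1.07 and -0.46 in goblet progenitors and -2.05 and -1.37 in goblet cells, which make mucus. By this ratio, which leaves out Ephb4, Paneth cells were highest in both mice, at 0.66 and 2.22. They held 19 and 42 receptor UMIs against 12 and 9 ligand UMIs. In mouse 1 Ephb4 gave 3 UMIs in Paneth cells and 21 in secretory progenitors, which held 14 receptor and 19 ligand UMIs. The lead of Paneth cells in mouse 1 therefore holds for Ephb2 and Ephb3 only.

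**Figure D3:**
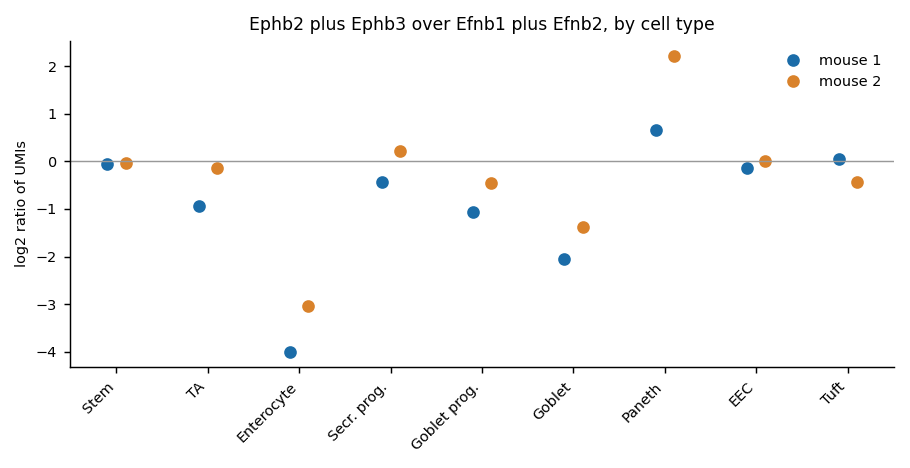
Log2 ratio of the UMIs of Ephb2 and Ephb3 to those of Efnb1 and Efnb2 (vertical axis) in the 9 epithelial types (horizontal axis), with 1 point per mouse. Stem cells sit at -0.06 and -0.03, enterocytes lowest at -4.01 and -3.04 and Paneth cells highest at 0.66 and 2.22.

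Cells with a UMI of both a receptor and a ligand were counted. Among cells thinned to 5000 UMIs, with Ephb2, Ephb3 and Ephb4 as receptors and Efnb1 and Efnb2 as ligands, 5.88% of stem cells in mouse 1 (95% Clopper-Pearson interval 2.57 to 11.3) and 12.0% in mouse 2 (6.70 to 19.3) held a UMI of each. The product of the separate shares was 4.93% and 10.8%, close to these values. In enterocytes the shares were 1.61% (0.905 to 2.65) and 4.45% (2.61 to 7.03), beside products of 1.74% and 4.82%. In lymphocytes 0 of 11 cells of mouse 1 and 1 of 18 of mouse 2 (5.56%, 0.141 to 27.3) held both. The enterocyte gene Fabp1 gave 80 UMIs in lymphocytes of mouse 1 and 0 in those of mouse 2, before thinning. Whether free RNA gave the 1 cell with both was not tested, so its share is not a measured background. The enterocyte share of mouse 2 is below that lymphocyte share, and the interval of the stem share overlaps with its interval. The part of free RNA in the stem cell and enterocyte shares was not tested either. These counts are not read as expression of both genes by 1 cell. Intervals here and elsewhere cover counting error only.

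Paneth cells, which make antimicrobial proteins at the crypt base, differ from stem cells in a way that depends on the scale. Their 10 most abundant genes took 82.6% and 81.9% of their UMIs, against 8.62% to 25.7% in the other types. Over the 10179 genes seen in both types, the median log2 ratio of Paneth to stem CPM was -3.22, and the TMM factors of the fit remove this shift. On the fitted scale 4 of the 7 genes passed the test, against 31.6% of all genes, 16.6% higher and 14.9% lower in Paneth cells. Ephb3, the receptor that Paneth cells are known to use to find their place, was higher in them by a log2 fold change of 2.88 (SE 0.51, edgeR adjusted p = 4.39e-05). Ephb4 was lower by -1.45 (SE 0.40, edgeR adjusted p = 0.0052) and Efnb1 by -0.87 (SE 0.33, adjusted p = 0.0403). Efnb2 gave 0 UMIs in either mouse, which allows up to 0.853 and 0.687 CPM, below the 3.92 and 5.61 CPM of stem cells. After TMM scaling these limits are 5.46 and 5.66, above the 2.97 and 4.64 of stem cells, so on that scale a difference was not detectable at this depth in either mouse alone. It passed the test (edgeR adjusted p = 0.0416), with a fitted fold change that depends on the prior count and is not given.

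For Ephb3 the direction turns with the scale. In plain CPM Paneth cells of mouse 1 and mouse 2 were at 3.70 and 5.96 and stem cells at 5.05 and 6.86, a log2 ratio of the means of -0.30. After TMM scaling Paneth cells were at 23.7 and 49.1 and stem cells at 3.81 and 5.67. Counted per cell, 13 UMIs in 78 Paneth cells and 26 in 54 stood against 9 in 139 stem cells and 11 in 117, a log2 ratio of the means of 2.03. Paneth cells were far deeper, with medians of 44683.5 and 80820 UMIs. Thinned to 5000 UMIs, Ephb3 was seen in 1 of 78 and 0 of 54 Paneth cells, too few for a comparison. In the fit on thinned cells Ephb3 and Epha2 failed the low-count filter and none of the other 5 genes passed (edgeR, 0 also at an unadjusted p under 0.05; DESeq2 on all cells called 2 of 7). For Ephb4, Efnb1, Ephb2, Epha2 and Efna1 the mean of Paneth cells was lower than that of stem cells in plain CPM and per cell, and the fitted fold change was below 0. The calls of Efnb1 and Efnb2 were lost with DESeq2 (adjusted p = 0.0584 and 0.0668) and under a stricter cell filter (0.0847 and 0.126). Those of Ephb4 and Efnb1 were lost without the mouse term (0.174 and 0.0657).

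**Figure D4:**
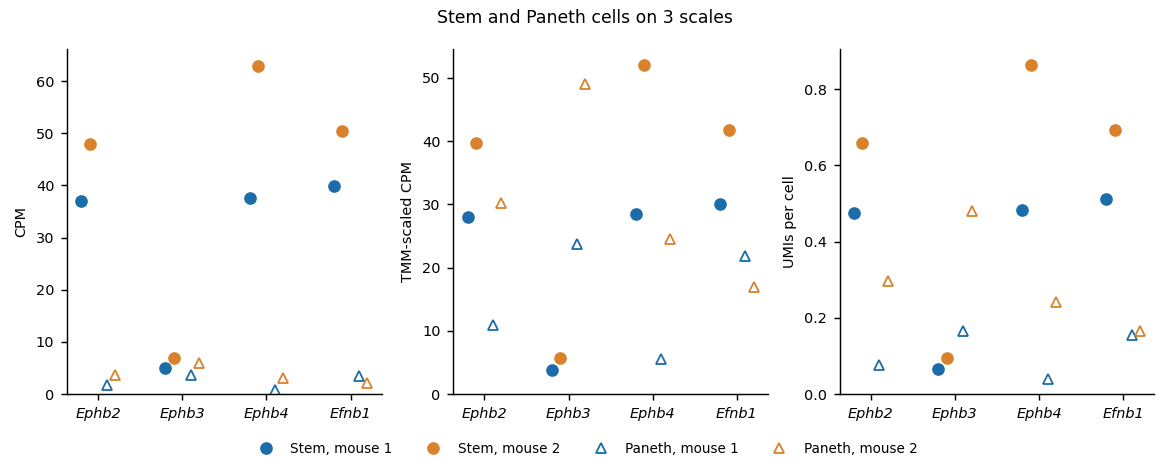
Ephb2, Ephb3, Ephb4 and Efnb1 (horizontal axis) in stem cells (filled circles) and Paneth cells (open triangles) of each mouse, in CPM, in TMM-scaled CPM and in UMIs per cell (vertical axes, linear from 0). Ephb3 of Paneth cells sits at 3.70 and 5.96 CPM, near stem cells at 5.05 and 6.86, and at 23.7 and 49.1 after scaling, above stem cells at 3.81 and 5.67.

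In the goblet lineage 3 of the 7 genes passed the test between progenitors and mature cells, against 29.1% of all genes, 13.2% higher and 15.9% lower in progenitors. Ephb2 was at 37.6 and 50.4 CPM in goblet progenitors and 17.4 and 19.7 CPM in goblet cells, and was higher in progenitors by a log2 fold change of 0.72 (SE 0.26, edgeR adjusted p = 0.0348). Ephb4 was at 30.3 and 49.2 CPM against 10.0 and 21.5 CPM, a log2 fold change of 0.90 (SE 0.26, edgeR adjusted p = 0.0079). Efnb2 was at 22.7 and 16.8 CPM against 29.6 and 20.1 CPM, a log2 fold change of -0.83 (SE 0.24, edgeR adjusted p = 0.0101). For Efnb2 progenitors of mouse 1 overlapped with goblet cells of mouse 2 in plain CPM. All 3 calls were lost without the mouse term (adjusted p from 0.181 to 0.408) and after thinning (0.0575 to 0.0750), and that of Ephb2 also with DESeq2 (0.0844). The log2 fold changes stayed close or grew, to 0.76 and 0.93 for Ephb2, 0.87 and 0.94 for Ephb4 and -0.82 and -1.01 for Efnb2 without the mouse term and after thinning.

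Tuft cells, rare chemosensory cells, had the highest Ephb2 of all types. They gave 35 UMIs (84.6 CPM, exact Poisson 95% interval 59.0 to 118) in mouse 1 and 43 UMIs (76.8 CPM, 55.6 to 103) in mouse 2. The next type by mean was TA cells, at 35.1 and 59.8 CPM, and the 2 types did not overlap. Thinned to 5000 UMIs, Ephb2 was seen in 38.5% of 39 tuft cells and 26.3% of 38, against 15% and 26.0% of TA cells, and in mouse 2 the intervals of the shares overlapped. Tuft cells and enterocytes led for Efnb1 at 69.8 ± 9.85 CPM and 68.4 ± 6.36 CPM (SD, n = 2), within their spread of each other. After TMM scaling enterocytes led at 65.4 and tuft cells followed at 47.8.

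Neighbours in the order of mean CPM often overlapped. For Ephb2 TA cells, goblet progenitors, stem cells, EEC and secretory progenitors each overlapped with the next. For Ephb4 stem cells led at 50.3 ± 17.96 CPM, and TA cells, tuft cells, secretory progenitors and goblet progenitors followed within the spread. Enterocytes led for Efnb2 at 51.7 ± 2.84 CPM, for Efna1 at 40.2 ± 2.13 CPM and for Epha2 at 17.4 ± 9.52 CPM (SD, n = 2), and did not overlap with the next epithelial type in any of them. Lymphocytes were left out of this order. Their Epha2 of 19.0 and 13.3 CPM, on 5 and 3 UMIs, overlapped with that of enterocytes and was above it in mouse 2. Ephb3 had no clear order, since EEC led on 2 and 3 UMIs, and the means of 8 of the 9 types lay within 2.56 to 8.57 CPM. Paneth cells were last in plain CPM for every gene but Ephb3, and after TMM scaling they led for Ephb3 at 36.4 ± 17.96.

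Among enterocytes, the genes were set against a villus position score, the share of UMIs from 6 genes of the villus tip among those of 6 tip and 6 base genes. The cells of each mouse were ranked and cut into 3 bins of 311, 310 and 310 cells in mouse 1 and 128, 127 and 127 in mouse 2. The bins are ranges of a score, not types. Their values are a description. Epha2 was at 14.98, 22.0 and 36.9 CPM from base to tip in mouse 1 and 5.84, 9.22 and 17.9 CPM in mouse 2. Ephb2 was at 11.6, 6.57 and 2.75 CPM in mouse 1 and 19.1, 14.6 and 9.25 CPM in mouse 2. Ephb4 was at 9.48, 3.71 and 1.37 CPM and at 23.4, 15.2 and 8.02 CPM. These 3 receptors kept 1 direction across the bins in both mice, Epha2 toward the tip and the B receptors toward the base.

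The ligands did not share a direction. Efnb1 differed between tip and base bin by a log2 value of -0.51 in mouse 1 and -0.16 in mouse 2, and with 2 bins by -0.27 and 0.19, so mouse 2 turned direction. Efnb2 differed by -0.40 and 0.31, with opposite signs in the mice. Efna1 differed by 0.37 and 0.34, and its highest bin was the tip in mouse 1 and the middle in mouse 2. After thinning Efna1 differed by 0.31 and -0.22, so mouse 2 turned direction here too. Ephb3 could not be followed on its 5 UMIs. The median depth of the bins was 16342 to 18687.5 UMIs in mouse 1 and 11926 to 14159 in mouse 2.

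**Figure D5:**
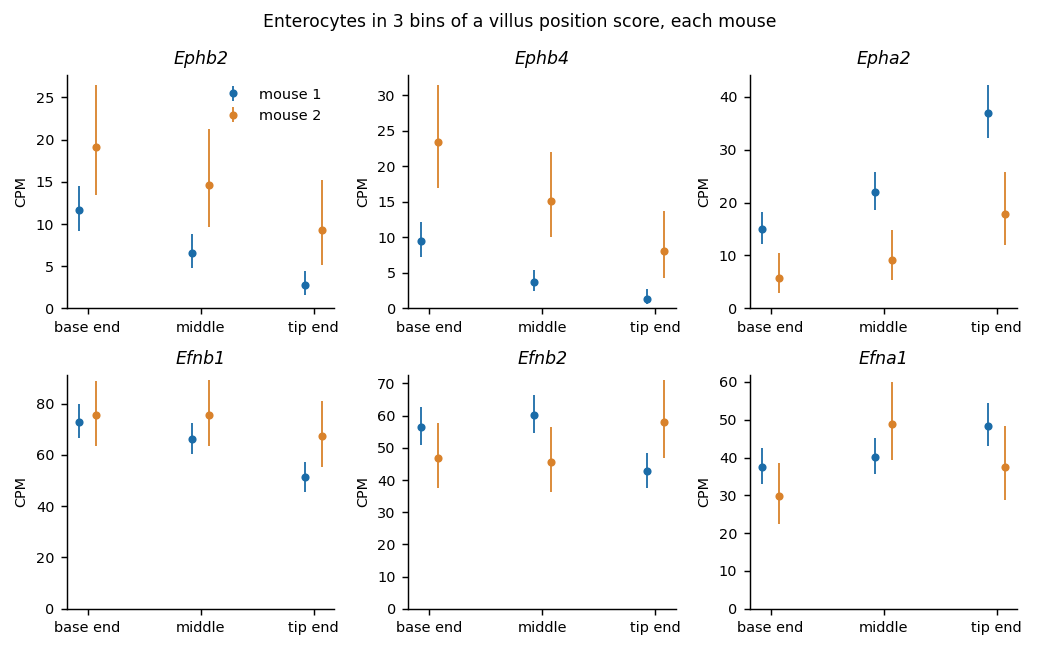
Level in CPM (vertical axis, linear from 0, its own range in each panel) of 6 genes in enterocytes cut into 3 bins of a villus position score (horizontal axis), with 1 point per mouse and exact Poisson 95% intervals. Epha2 goes from 14.98 to 36.9 CPM in mouse 1 and from 5.84 to 17.9 CPM in mouse 2, and Ephb4 from 9.48 to 1.37 CPM and from 23.4 to 8.02 CPM.

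Enterocytes also differed between the mice. Epha2 was 2.26 times as high in mouse 1 as in mouse 2 (95% counting interval 1.72 to 3.03). Ephb2 was at 0.489 times (0.368 to 0.654) and Ephb4 at 0.312 times (0.231 to 0.423) the level of mouse 2. Efnb1 was at 0.877 times (0.782 to 0.985). Efnb2 had a ratio of 1.08 (0.944 to 1.24) and Efna1 one of 1.08 (0.924 to 1.26). Lower Ephb2 and Ephb4 in mouse 1 was not particular to enterocytes. Ephb4 had a ratio of 0.597 in stem cells, 0.69 in TA cells, 0.617 in goblet progenitors and 0.468 in goblet cells. Ephb2 had one of 0.586 in TA cells and 0.746 in goblet progenitors. The counting intervals of these ratios lay below 1. Ratios above 1 were Ephb2 in secretory progenitors (1.58), EEC (2.43) and tuft cells (1.1) and Ephb4 in secretory progenitors (1.14). Their intervals span 1. With 1 library per mouse there is no test of these differences. The median mitochondrial share of enterocytes was 13.2% in mouse 1 and 7.59% in mouse 2, and the base genes of the position score took 22637 and 8523 CPM. Their part in the differences was not tested. In lymphocytes Epha2 gave 5 and 3 UMIs, or 19.0 and 13.3 CPM, close to its level in enterocytes. The enterocyte gene Fabp1 was there at 305 and 0 CPM, against 19464 and 8640 CPM in enterocytes.

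Of 15 other Eph and ephrin genes looked up, 5 gave no UMI in epithelial cells and 4 passed 10 CPM in some type in both mice. Epha1 was highest in enterocytes, at 33.6 and 29.7 CPM against 7.85 and 6.86 CPM in stem cells, with a log2 fold change of stem cells over enterocytes of -2.39 (edgeR adjusted p = 3.66e-07). Efna4 ran the other way, at 46.0 and 38.0 CPM in stem cells and 6.14 and 6.54 CPM in enterocytes, a log2 fold change of 2.46 (edgeR adjusted p = 2.31e-09). It was also higher in stem than in TA cells, by 1.26 (edgeR adjusted p = 7.26e-04). Efna4 was thus an ephrin gene that was higher in stem cells than in enterocytes, unlike the 3 ligands of the set. Secretory progenitors were at a similar 39.1 and 40.2 CPM, so a high Efna4 was not particular to stem cells. Epha4 and Efna3 were highest in EEC, the hormone cells, at 17.7 and 27.9 CPM and at 16.1 and 27.9 CPM. EEC gave 620638 and 215413 UMIs in all, so these levels rest on few molecules.

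Genes that work with Eph receptors and ephrins were counted by role. Of 14 receptor partners, adaptors and kinases that bind the active receptor, 13 were tested. In stem cells against enterocytes 1 was higher and 1 lower, against 23.5% and 27.8% of all genes. These were Pik3r1, a PI3-kinase subunit, which was higher (log2 fold change 0.47), and the kinase gene Src, which was lower (-1.60). The median of the 13 was -0.09, beside -0.06 over all genes. Of 7 exchange factors that pass the signal to small GTPases, 6 were tested, 2 were higher and 2 lower, on the background of 23.5% and 27.8% of all genes. Tiam1 was at 4.78, Vav3 at 2.85 and Kalrn at -3.30 on the log2 scale. The scaled CPM of Tiam1 was 7.63 and 5.16 in stem cells and 0.102 and 0.521 in enterocytes, so its fold rests on very few enterocyte UMIs. Vav3 was at 3.39 and 2.58 in stem cells and 0.407 and 0.347 in enterocytes on that scale. Kalrn was at 1.27 and 1.03 in stem cells and 14.6 and 8.51 in enterocytes. Their folds rest on few UMIs as well. Of 5 genes for proteins that bind the ephrin-B tail, 4 were tested and 2 were lower, Rgs3 at -2.44 and Sdcbp, which codes for syntenin, at -0.57. Over these 3 lists 23 genes were tested. In Paneth against stem cells 4 were higher and 2 lower, where 31.6% of all genes passed, and in goblet progenitors against goblet cells 5 were higher and 2 lower, where 29.1% passed. Both shares are near the background.

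Wnt target genes of the crypt are given for comparison with the B receptors. Lgr5, Axin2, Ascl2 and Smoc2 of this list are also among the stem cell markers checked above. The authors named the types with known markers, so high values of such genes in stem cells were partly given by the naming. The list is therefore not an independent yardstick. In stem cells against enterocytes 11 of 12 were higher, against 23.5% of all genes, and none lower, with a median log2 fold change of 3.57. Of the 3 named here, chosen after their values were seen, Lgr5, a receptor that marks stem cells, was at a scaled CPM of 41.5 and 23.2 in stem cells and 0.102 and 0 in enterocytes. Axin2, a brake on the pathway, was higher by 2.90 and the stem cell factor Ascl2 by 6.99. Between stem and TA cells 8 of the 12 were higher, against 1.91% of all genes, with a median of 1.10, Axin2 at 0.90 and Ascl2 at 1.73. The values of Ephb2, Ephb3 and Ephb4 there were 0.000088, 1.14 and 0.19, none past the test, and their difference from the list was not tested. The lists were not tested as sets.

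The genes most like each member were found by Pearson correlation of log2 scaled CPM over the 18 sums, which come from 2 mice and include Paneth sums that stand far from the rest, so the values are descriptive. Ephb2 was closest to Uspl1 (r = 0.81), Kcnn4 (0.79) and Tiam1 (0.79), and Ephb4 to Ewsr1 (0.94), 2700094K13Rik (0.91) and Siva1 (0.91). Ephb3 was closest to Ninj1 (0.90), Pla2g12a (0.86) and Bccip (0.85). Epha2 was closest to Sept9 (0.86), Bco2 (0.85) and Ppfia3 (0.84). Efnb2 was closest to Anxa2 (0.96), Mgst2 (0.94) and Hsd17b2 (0.93), Efnb1 to Snapc5 (0.92), Tspan15 (0.92) and Mpc1 (0.91), and Efna1 to D1Ertd622e (0.90), Tbc1d14 (0.90) and Angptl4 (0.90). Within the set, Efnb1 and Efnb2 gave 0.86, Ephb2 and Ephb4 gave 0.74, and Ephb3 and Efnb2 gave -0.84.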

How the data were processed

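Single-cell RNA-seq was performed on jejunal crypts of 2 male 375KO mice, 1 library each. The authors used Cell Ranger 3.0.1 with an mm10 reference and deposited UMI counts per gene and barcode, and the submitters' processing notes also name Seurat 3.2.1. The study's methods name SoupX for removal of free RNA, without saying for which file, and scDblFinder for doublets, which were removed. The authors kept cells with at least 1500 genes and at most 25 percent mitochondrial reads. The deposited percent of mitochondrial UMIs and the cell type names were joined to the columns of the study's count table by cell order and from there to the matrices by barcode, and 3275 of 3275 cells had equal UMI totals and gene numbers in annotation and count table. Columns of other samples (2937) were not used, nor was the sctransform table.

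UMI counts were summed per mouse and type, filtered with filterByExpr, scaled by TMM and fitted with edgeR 4.0.16 (quasi-likelihood, robust; cell type and mouse as terms; 18 sums, 8 residual degrees of freedom). Tests were two-sided, with Benjamini-Hochberg adjustment over 11013 genes and a threshold of 0.05. All 7 genes passed the filter. The SE is the log2 fold change over the square root of F. With 1 mouse left out no test was possible, and fold changes had a prior count of 2. A count of 0 was read as allowing 3 counts. Alternatives used DESeq2 1.42.0 size factors and its Wald test, no filter, no mouse term, no Paneth sums, a stricter cell filter (2000 genes, 15 percent mitochondrial), cells thinned to 5000 UMIs, the count table of the study, whose genes were named by equal counts in all cells used here, and each mouse left out. CPM and UMIs per cell for Paneth cells were added after seeing the data. The fit was tested on simulated data. The genes and lists were chosen with earlier results of these data known. Named genes were the 7 members, other family genes past 10 CPM, up to 3 called genes per partner list, 3 Wnt targets (the rule gave only their number, and these were chosen after their values were seen) and the 3 genes most like each member. A further list of partner genes is not reported here.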

Additional observations from a re-analysis of the deposited data

How the results depend on the processing

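Stem cells and TA cells against enterocytes kept all 7 calls and their directions under 7 of the 8 alternatives with a test. After thinning Ephb3 and Epha2 failed the low-count filter, and the other 5 kept theirs. Other counts of genes called moved. Stem against TA cells had 0 of the 7 genes called by edgeR without the mouse term (1 at an unadjusted p under 0.05) and 0 of 5 after thinning (0 unadjusted), and 1 with DESeq2. Paneth against stem cells had 2 with DESeq2, 2 without the mouse term, 2 under the stricter cell filter and 0 of 5 after thinning (0 unadjusted). Goblet progenitors against goblet cells had 0 by edgeR without the mouse term (1 unadjusted) and 0 of 5 after thinning (3 unadjusted), and 2 with DESeq2. The cause was not tested. The sign of Ephb2 in stem against TA cells turned, near 0, to log2 fold changes of -0.12 with no filter, -0.035 without the mouse term, -0.20 under the stricter filter, -0.074 after thinning and -0.00077 with the study's count table. Efna1 in Paneth cells turned to 0.59 after thinning and Ephb3 there to -0.30 in plain CPM. Without the mouse term the genes called overall fell from 5650 to 3311, 532 to 70, 5692 to 2848, 3476 to 2175 and 3200 to 1043 in the order of the report, and after thinning to 3762, 349, 3889, 1164 and 1636. With no filter stem against TA cells had 834. The mouse term of the fit is a block that pairs types of the same mouse, and leaving it out is the unpaired alternative given above. Leaving out 1 mouse gave a stem minus enterocyte log2 ratio of receptors to ligands between 3.003 and 3.96. Among the bins of enterocytes, Efna1 had a mean tip minus base log2 difference of 0.35, and 0.045 after thinning, where the value of mouse 2 turned to -0.22. Depth limits Ephb3 in all types and all 7 genes in EEC, tuft cells and secretory progenitors.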
